A study of Homo sapiens with 12 samples.

Results

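The 7 human APOBEC3 genes, APOBEC3A, APOBEC3B, APOBEC3C, APOBEC3D, APOBEC3F, APOBEC3G and APOBEC3H, were followed through RNA-sequencing of the cell line U937 under 2 drugs, decitabine (DAC) and the retinoid all-trans retinoic acid (ATRA), alone and together. Each row of the deposited table stands for 1 transcript, and every row carrying one of these 7 gene symbols was taken: 38 of 197782 transcripts, and 7 of 44786 gene symbols. Of the 38 transcripts, 12 had at least 1 read over the 12 libraries and 26 had none. APOBEC3C held 14732 of the 17780 reads, APOBEC3F 1561, APOBEC3G 1309, APOBEC3B 166 and APOBEC3D 12, while APOBEC3A and APOBEC3H held 0.

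APOBEC3 proteins are cytidine deaminases that turn cytosine into uracil in single-stranded DNA. They form a cluster of tandem genes on chromosome 22 and are known in blood cells as restriction factors, which block retroviruses such as HIV and the movement of endogenous retroelements. APOBEC3G and APOBEC3F are packaged into virus particles and mutate the viral DNA as it is copied, and interferon raises several members in myeloid cells. APOBEC3B and APOBEC3A are also known as sources of mutations in tumours.

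U937 is an established human myeloid line, which the labels call an AML cell line. The 4 groups of 3 libraries each were untreated cells, labelled 96 h, cells given 200 nM DAC, cells given 1 µM ATRA, and cells given both (DAC+ATRA), the last 3 labelled 72 h. Treatment ran over 3 days with new medium each day, and the groups given DAC received it fresh each day, while the ATRA group received none. All groups, untreated included, grew in 20% FCS with 5 ng/ml GM-CSF, per the labels. The study's methods instead give a lower serum level, add ATRA with the last DAC dose and give controls the vehicles, and the design text has RNA isolated after 72 h with no other time for untreated cells. Which of these held for the untreated libraries was not settled, and a difference in culture time cannot be told apart from the treatments. DAC is a cytosine analogue that depletes DNA methyltransferases, and ATRA is the ligand of the retinoic acid receptors, which drives myeloid maturation. The submitters describe the triplicates as technical, so p-values below measure the spread between such samples only.

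The libraries held 8042435 to 10683593 counted reads. A normalized read count is a read count divided by 1 size factor per library (0.809 to 1.20), and 3 reads, the limit below which a value cannot be told from 0, corresponded to 2.50 to 3.71 normalized reads. Of 12 myelomonocytic markers, 10 reached 10 normalized reads in a library, with MPO, CEBPA and CD33 high in every library and CD14 and CD68 between 0 and 2.71. The sum over the 12 markers, most of it MPO and CEBPA, ran from 58735 to 65555 in untreated and from 32563 to 35226 in DAC+ATRA, and does not stand for each marker. The summed fibroblast markers (3 genes, mainly COL1A1 and PDGFRB) ran from 25.5 to 47.1 in untreated and from 478 to 506 in DAC, and the B cell markers (4 genes, led by CD79A) from 485 to 557 in untreated and from 1654 to 1781 in DAC+ATRA. Of 5 T cell markers CD4 alone reached 10 normalized reads, and HBA1, HBB and CDH1 were at 0. The part of these markers in the results below was not tested, and in bulk RNA a change in the share of cells cannot be told apart from a change in RNA per cell.

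What a transcript row can show depended on how many of its bases no other listed transcript of the same strand covers, here called its own bases (GENCODE release 44, hg38). Over the whole table, 2.02% of 57513 transcripts with no own base had 10 reads or more, against 33.5% of 117255 transcripts with at least 1. Among the APOBEC3 rows, 32 were found in that annotation, and 14 of these had no own base. The coding transcripts of APOBEC3A had 0 to 1 own bases, those of APOBEC3D 0 to 14 and those of APOBEC3H 0 to 34. The 0 of APOBEC3A and APOBEC3H and the 12 reads of APOBEC3D are therefore listed values and cannot be read as absence of these mRNAs. A non-coding APOBEC3A transcript with 466 own bases and a non-coding APOBEC3H transcript with 108 were also listed at 0. A further 6 rows, 5 of APOBEC3A and 1 of APOBEC3G, were not in the annotation used here. They held 0 reads.

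**Figure D1:**
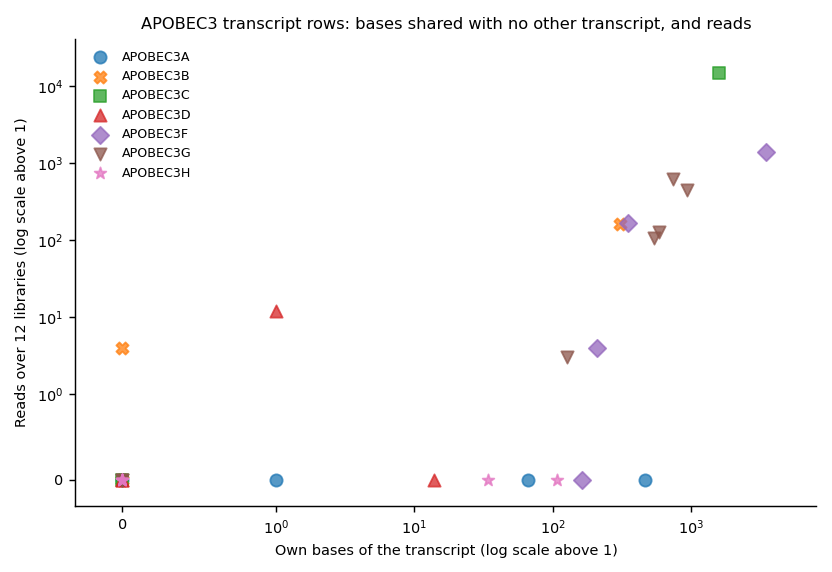
Reads over the 12 libraries (vertical) against own bases (horizontal) for the 32 APOBEC3 transcripts found in the annotation, both axes on a log scale above 1 and linear below it. Every transcript with more than 12 reads had at least 306 own bases, and the rows of APOBEC3A and APOBEC3H lie on the line of 0 reads.

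The 8 transcripts that passed the filter of 10 normalized reads in 3 libraries were counted in known places of their genes, all on the plus strand of chromosome 22 (hg38). APOBEC3C was read through ENST00000361441 (22:39014257-39020352), with 1426 of its 1588 own bases in the last exon, exon 4. APOBEC3F was read through the full-length ENST00000308521 (22:39040864-39055972), with 3396 of 3462 own bases in exon 7, and through the short coding ENST00000381565, which ends in an alternative last exon inside intron 2. APOBEC3B was read through ENST00000402182, whose own bases lie almost wholly (281 of 306) in a stretch that is intron 7 of the coding ENST00000333467. Of the windows of 50 bases there, 73.3% also occur in APOBEC3A, so its reads could be split between these 2 genes. APOBEC3G was read through 1 coding and 3 non-coding transcripts. The coding ENST00000407997 (22:39077275-39087743) has its 742 own bases in exons 6 to 8. ENST00000494150 has 934 own bases inside intron 2, ENST00000463934 has 576 of 588 inside the same intron, and ENST00000481958 has 535 inside intron 4. All 3 are annotated as retained-intron transcripts. For ENST00000463934, 53.1% of the windows also occur in APOBEC3F, against 1.92% for ENST00000494150. These 3 and the APOBEC3B transcript stayed under 10 normalized reads in every untreated library, so they passed the filter through treated groups only.

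**Figure D2:**
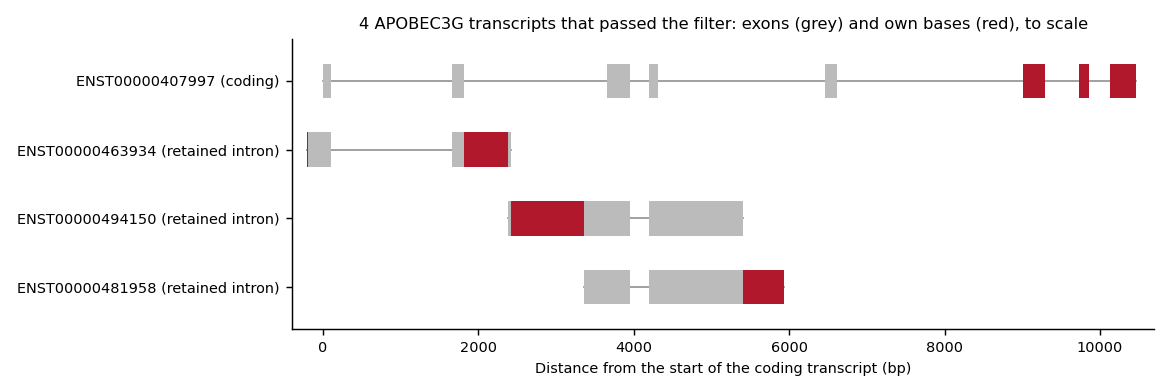
The 4 APOBEC3G transcripts that passed the filter, drawn to scale by distance from the start of the coding transcript in bp. Grey boxes are exons and red boxes are own bases, which fall in exons 6 to 8 for the coding transcript, in intron 2 for ENST00000463934 and ENST00000494150, and in intron 4 for ENST00000481958.

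The ends of intron 2 are printed because the largest changes among the APOBEC3 rows were read inside it. In APOBEC3G this intron spans 1847 bases, 22:39079086-39080932. Each line holds 20 exon bases in capitals and 20 intron bases in lower case, 5′ to 3′ on the plus strand of hg38. The matching intron of APOBEC3F, 1850 bases long, is printed with it for comparison. At the donor 39 of the 40 bases are identical, and at the acceptor 32 of the 40. The last line is the acceptor of the alternative last exon that ends the short APOBEC3F transcript.
APOBEC3G intron 2 donor: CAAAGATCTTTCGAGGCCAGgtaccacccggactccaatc
APOBEC3F intron 2 donor: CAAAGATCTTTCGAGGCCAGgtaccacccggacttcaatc
APOBEC3G intron 2 acceptor: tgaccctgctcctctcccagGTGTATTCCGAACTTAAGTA
APOBEC3F intron 2 acceptor: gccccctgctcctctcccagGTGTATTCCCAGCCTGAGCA
APOBEC3F alternative last exon acceptor: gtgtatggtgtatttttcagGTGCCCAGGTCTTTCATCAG

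Among the coding transcripts tested, that of APOBEC3C had the highest level per length. In untreated cells it had 765 ± 43.2 (SD, n = 3) normalized reads per kb of own bases. The other levels among these transcripts were 32.6 ± 8.60 for that of APOBEC3G, 26.3 ± 11.9 for short APOBEC3F and 22.4 ± 3.36 for full-length APOBEC3F. The APOBEC3B row had 26.0 ± 3.62, and these 4 lay within each other's spread. In DAC+ATRA the order had APOBEC3C first at 675 ± 35.1 and APOBEC3G next at 128 ± 28.6. Short APOBEC3F at 52.0 ± 8.12 and full-length APOBEC3F at 35.2 ± 5.66 lay apart from APOBEC3G. The APOBEC3B row had 56.8 ± 10.7. Of the windows in its own bases, 73.3% also occur in APOBEC3A, so its place in either order is not settled.

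**Figure D3:**
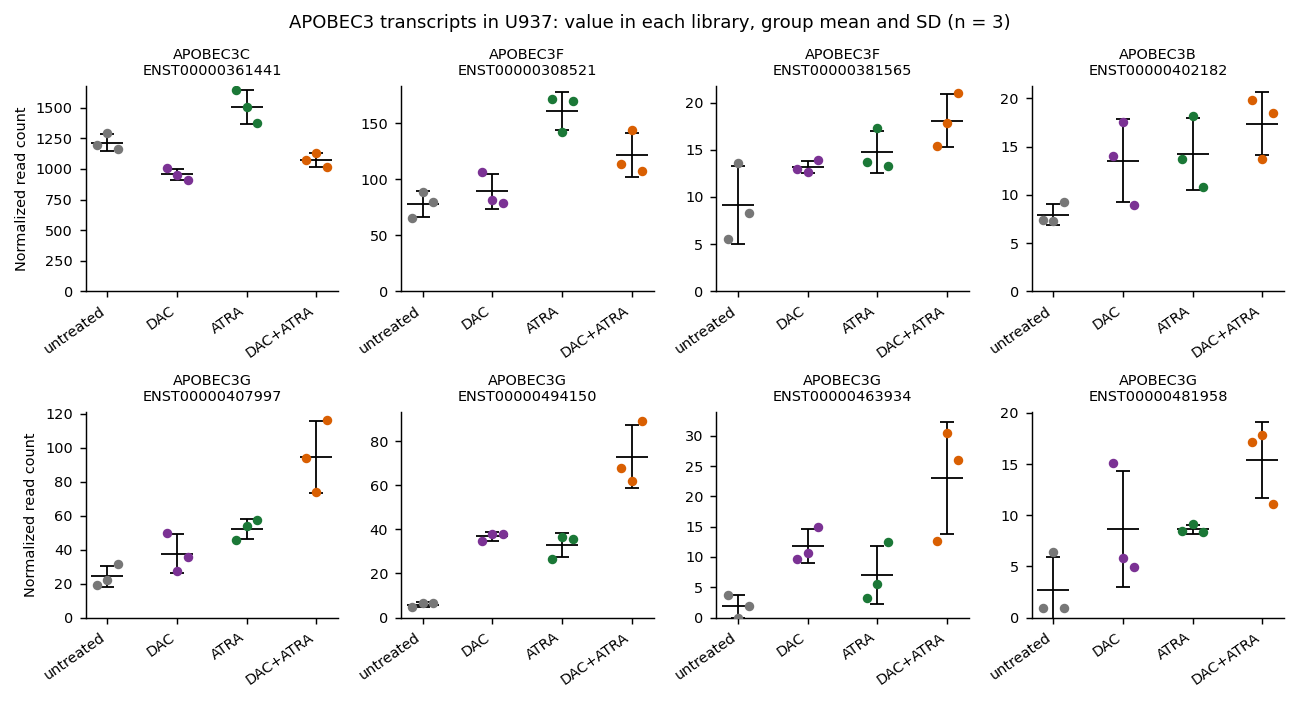
Normalized read counts of the 8 APOBEC3 transcripts that passed the filter, 1 panel each with its own vertical axis from 0. Points are libraries, horizontal lines and bars the mean and SD of 3 libraries, with a bar that would pass below 0 drawn to 0. DAC+ATRA holds the 3 highest values of the APOBEC3G coding transcript and of ENST00000494150, and ATRA the 3 highest values of APOBEC3C.

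Each difference below is one of log2(normalized read count + 1) between groups, fitted with limma, and a transcript is called at a Benjamini-Hochberg adjusted p under 0.01. Of the 5 coding APOBEC3 transcripts tested, DAC left 0 called higher and 1 lower (2 had an unadjusted p under 0.05), where 39.3% of all 9016 coding transcripts were called. ATRA left 2 called higher and 0 lower, against 9.14% called among all. DAC+ATRA left 3 called higher and 0 lower, where 46.8% of all were called. One of the 3 was APOBEC3B, which passed the filter through treated groups only, so nothing is read from this count against that share. With TMM scaling in edgeR this became 1 higher (APOBEC3G) and 1 lower (APOBEC3C), and DESeq2 also called 2. The median over all coding transcripts was itself 0.22 in DAC, 0.00090 in ATRA and 0.20 in DAC+ATRA. The share of calls that were higher was 77.9%, 70.8% and 69.7% in the 3 comparisons, and 58.9%, 60.6% and 59.0% with TMM scaling in edgeR.

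APOBEC3C, a member with a single deaminase domain and only weak activity against HIV, was lower with DAC and highest with ATRA. The untreated libraries had 1193, 1292 and 1159.9 normalized reads and the DAC libraries 1005, 953 and 909. The ATRA libraries had 1644, 1506 and 1372, and the DAC+ATRA libraries 1069.5, 1128 and 1017. The 4 groups did not overlap, in the order DAC, DAC+ATRA, untreated, ATRA. APOBEC3C fell by 0.35 in DAC (SE 0.10, limma adjusted p = 0.0059), a drop of 1.27-fold. Its 0.31 in ATRA (SE 0.10, limma adjusted p = 0.038) and −0.18 in DAC+ATRA (SE 0.10, limma adjusted p = 0.12) were not called. The DAC+ATRA difference was called under TMM in edgeR (−0.32, adjusted p = 9.79e-04), and the ATRA difference without ATRA library 9 (0.37, limma adjusted p = 0.0062) and under TMM without DAC library 6 (0.29, edgeR adjusted p = 0.0081). The DAC call was lost in 5 of the fits that left out 1 library, those without untreated libraries 1, 2 or 3 or DAC libraries 5 or 6.

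APOBEC3F, a member with a pair of deaminase domains that acts against HIV beside APOBEC3G, was higher with ATRA in its full-length transcript. Untreated libraries had 65.3, 88.3 and 79.4 normalized reads and DAC libraries 107, 81.8 and 78.7. ATRA libraries had 172, 142 and 169.8, and DAC+ATRA libraries 114, 144 and 108. All ATRA and all DAC+ATRA values were above all untreated values, while DAC overlapped untreated. The rise was 1.05 in ATRA (SE 0.17, limma adjusted p = 1.3e-04), which is 2.07-fold, and 0.64 in DAC+ATRA (SE 0.17, limma adjusted p = 0.0031), which is 1.56-fold. The DAC+ATRA call was lost without untreated library 1 (0.52, limma adjusted p = 0.023) or DAC+ATRA library 11 (0.52, limma adjusted p = 0.027), and under TMM in edgeR (0.51, adjusted p = 0.017). In DAC the difference of 0.19 (SE 0.17, limma adjusted p = 0.36) was not called, and it was −0.011 under TMM.

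The short APOBEC3F transcript, which lacks the later exons, had 5.51, 13.7 and 8.31 normalized reads in untreated and 13.0, 12.7 and 13.9 in DAC. It had 13.7, 17.3 and 13.3 in ATRA and 15.4, 17.9 and 21.0 in DAC+ATRA. DAC+ATRA did not overlap untreated, but the difference of 0.98 (SE 0.31, limma adjusted p = 0.012) was not called. It was called without untreated library 2, the highest of that group (1.28, limma adjusted p = 0.0027).

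APOBEC3G, the best known HIV restriction factor of the family, had its highest values with both drugs. Its coding transcript had 19.3, 21.8 and 31.4 normalized reads in untreated and 49.7, 27.3 and 35.9 in DAC. It had 45.4, 53.7 and 57.4 in ATRA and 94.0, 73.7 and 116 in DAC+ATRA. All DAC+ATRA libraries exceeded every other library, and DAC overlapped both untreated and ATRA. The rise was 1.10 in ATRA (SE 0.24, limma adjusted p = 0.0030), which is 2.15-fold, and 1.93 in DAC+ATRA (SE 0.24, limma adjusted p = 8.7e-07), which is 3.81-fold. In DAC the difference of 0.60 (SE 0.24, limma adjusted p = 0.044) was not called. Summed over all APOBEC3G transcripts, those read in introns included, the DAC difference was 1.44 and was called (limma adjusted p = 3.8e-07). The ATRA call was lost without untreated library 1 (limma adjusted p = 0.021), untreated library 2 (0.017), ATRA library 8 (0.011) or ATRA library 9 (0.011), with rises of 0.96 to 1.08.

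The row of APOBEC3B, the nuclear member, was low in every library. It was counted almost wholly in an intron of the coding ENST00000333467, so it does not give the level of APOBEC3B mRNA. It had 7.35, 7.28 and 9.24 normalized reads in untreated and 14.1, 17.5 and 8.96 in DAC. It had 13.7, 18.2 and 10.8 in ATRA and 19.9, 13.7 and 18.5 in DAC+ATRA, none of which overlapped untreated. The DAC+ATRA difference of 1.03 (SE 0.32, limma adjusted p = 0.0093), 2.04-fold, was called close to the threshold. It was not called by edgeR with TMM (0.98, adjusted p = 0.021) or DESeq2 (1.13, adjusted p = 0.041), nor in 7 of the 12 fits that left out 1 library. DAC at 0.66 (SE 0.32, limma adjusted p = 0.092) and ATRA at 0.75 (SE 0.32, limma adjusted p = 0.13) were not called. The APOBEC3B row passed the filter through treated groups only, so its call supports nothing further.

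Over all 19373 transcripts tested, coding or not, the 8 APOBEC3 transcripts held 2 calls higher and 1 lower in DAC, where 33.5% of all were called. In ATRA 3 were called higher and 0 lower, against 6.97% of all, and in DAC+ATRA 6 were called higher and 0 lower, against 41.6% of all. APOBEC3B and the 3 intron transcripts of APOBEC3G had to differ from untreated to pass the filter, as described above, and they make up 4 of the 6, so nothing is read from these counts against those shares. The calls that the coding fit did not have were all in the introns of APOBEC3G.

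The largest of these was ENST00000494150, read in intron 2 between the donor and acceptor shown above. Its untreated libraries had 4.60, 6.37 and 6.46 normalized reads and its DAC libraries 34.6, 38.0 and 37.8. ATRA libraries had 26.4, 36.4 and 35.8 and DAC+ATRA libraries 67.8, 62.1 and 89.0. Untreated lay below every treated library, DAC and ATRA overlapped, and DAC+ATRA lay above all. The rise was 2.48 in DAC (SE 0.24, limma adjusted p = 3.0e-09), 2.31 in ATRA (SE 0.24, limma adjusted p = 5.4e-08) and 3.44 in DAC+ATRA (SE 0.24, limma adjusted p = 4.9e-12). In fold these were 5.59, 4.97 and 10.8. ENST00000494150 passed the filter through treated groups only, so these p-values are a description and support nothing further.

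ENST00000463934, in the upstream stretch of the same intron, had 3.68, 0 and 1.85 normalized reads in untreated and 9.73, 10.7 and 14.9 in DAC. It had 3.17, 5.46 and 12.5 in ATRA and 12.7, 30.5 and 26.0 in DAC+ATRA. Its untreated values rest on 4, 0 and 2 reads, so the size of its differences depends on the pseudocount. It passed the filter through treated groups only, so its p-values against untreated support nothing further. It was called in DAC (2.41, SE 0.51, limma adjusted p = 4.1e-04) and in DAC+ATRA (3.26, SE 0.51, limma adjusted p = 7.5e-06), and not in ATRA (1.59, SE 0.51, limma adjusted p = 0.044). Without untreated library 2, the one at 0, these values were 1.79, 2.63 and 0.97 in DAC, DAC+ATRA and ATRA, with the same calls. ENST00000481958, in intron 4, had 0.919, 6.37 and 0.924 in untreated, 15.1, 5.85 and 4.98 in DAC, 8.45, 9.10 and 8.32 in ATRA and 17.2, 17.9 and 11.1 in DAC+ATRA. It reached 10 normalized reads in all 3 DAC+ATRA libraries and in 1 other, so it passed the filter through the group in which it was highest. It was called there (2.42, SE 0.48, limma adjusted p = 1.6e-04), with 1.53 in DAC (limma adjusted p = 0.012) and 1.68 in ATRA (limma adjusted p = 0.022). Without untreated library 2, its highest untreated value, both of the latter were called (2.18, limma adjusted p = 5.6e-04, and 2.32, limma adjusted p = 0.0012). The untreated libraries left in that fit hold 1 read each, below the limit of 3 reads, so these calls support nothing further.

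The effect of adding ATRA to DAC was then read from DAC+ATRA against DAC. The APOBEC3G coding transcript alone among the 5 coding ones was called, higher by 1.33 (SE 0.24, limma adjusted p = 4.4e-04), which is 2.51-fold, where 11.3% of all coding transcripts were called. Full-length APOBEC3F, at 0.45 (SE 0.17, limma adjusted p = 0.079), and APOBEC3C, at 0.16 (SE 0.10, limma adjusted p = 0.29), were not called. Among all transcripts, where 8.77% were called, 2 of the 8 APOBEC3 ones were higher, the second being ENST00000494150 (0.95, SE 0.24, limma adjusted p = 0.0062). That second call was lost without any 1 of the 6 DAC and DAC+ATRA libraries, with adjusted p of 0.011 to 0.062, while the call of the coding transcript was kept in all 12 fits that left out 1 library.

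The effect of adding DAC to ATRA was read from DAC+ATRA against ATRA. Here APOBEC3G and APOBEC3C moved in opposite directions: the APOBEC3G coding transcript was higher by 0.83 (SE 0.24, limma adjusted p = 0.0084), 1.78-fold, and APOBEC3C fell by 0.49 (SE 0.10, limma adjusted p = 3.3e-04), 1.40-fold. These were the calls among the 5 coding transcripts, where 34.8% of all were called. Of those calls over all coding transcripts 74.5% were higher, and 63.7% with TMM. Full-length APOBEC3F had −0.41 (SE 0.17, limma adjusted p = 0.059). Among all transcripts 2 APOBEC3 ones were higher and 1 lower, against 29.4% called, with ENST00000494150 at 1.12 (SE 0.24, limma adjusted p = 4.1e-04). The APOBEC3G call was lost in 6 of the 12 fits that left out 1 library, those without untreated library 2, ATRA libraries 7, 8 or 9, or DAC+ATRA libraries 10 or 12, where its rise was 0.67 to 0.90 and its adjusted p 0.010 to 0.058, and under TMM in edgeR (0.73, adjusted p = 0.013).

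**Figure D4:**
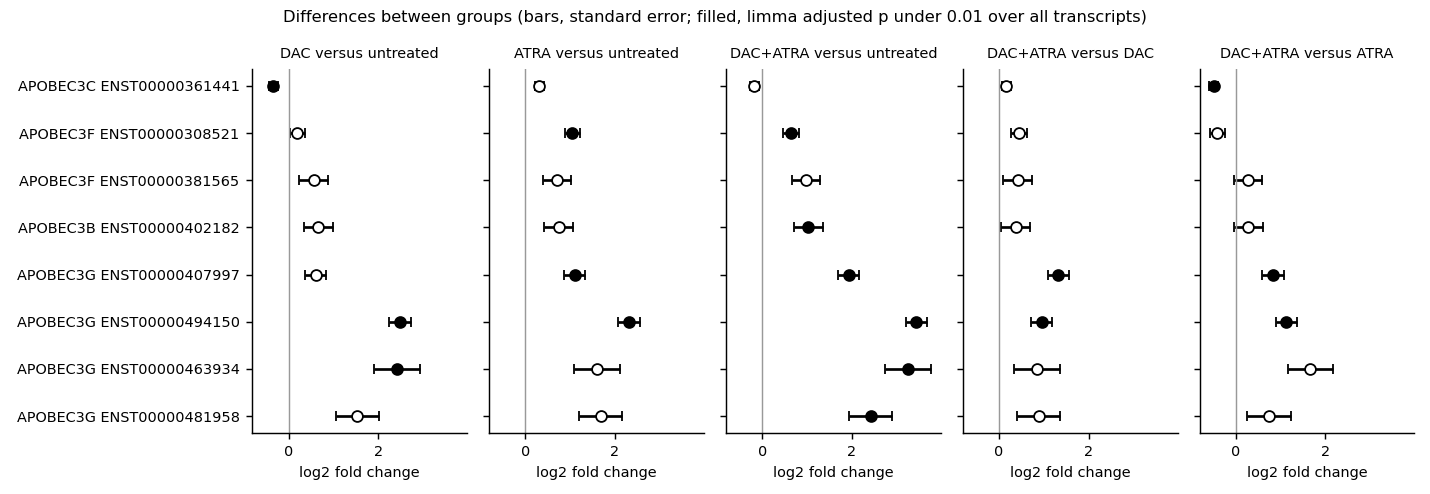
Log2 fold changes of the 8 APOBEC3 transcripts in 5 comparisons, from the fit over all 19373 transcripts. Bars are standard errors, and filled points have a limma adjusted p under 0.01. The APOBEC3G coding transcript is filled in DAC+ATRA against untreated, where 41.6% of all transcripts were called. The intron transcripts of APOBEC3G and the APOBEC3B transcript passed the filter through treated groups only, so nothing is read from their filled points against untreated. APOBEC3C lies left of 0 in both comparisons where it is filled.

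Single agents were also set side by side, in a comparison added after the values were seen. DAC against ATRA called 0 coding APOBEC3 transcripts higher and 2 lower, where 32.9% of all were called, 77.2% of them higher (60.3% with TMM). APOBEC3C fell by 0.65 (SE 0.10, limma adjusted p = 1.3e-05) and full-length APOBEC3F fell by 0.86 (SE 0.17, limma adjusted p = 3.4e-04). The APOBEC3G coding transcript had −0.50 (SE 0.24, limma adjusted p = 0.11).

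Whether the drugs together departed from the sum of their single effects on the log2 scale was tested with an interaction term. None of the 5 coding transcripts was called in limma, edgeR or DESeq2, and 1 had an unadjusted p under 0.05, where 2.46% of all coding transcripts were called. That one was full-length APOBEC3F (−0.60, SE 0.24, limma adjusted p = 0.19). The APOBEC3G coding transcript had 0.22 (SE 0.34, limma adjusted p = 0.80) and APOBEC3C −0.14 (SE 0.14, limma adjusted p = 0.66). Among the 8 transcripts in the fit over all transcripts, 0 were called against 1.51% of all, and 2 had an unadjusted p under 0.05. The second was ENST00000494150, with an interaction of −1.36 (SE 0.34, limma adjusted p = 0.021), which was not called. A negative value stands for DAC+ATRA below the sum of the single effects.

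The intron and exon signals of APOBEC3G were compared within each library, again in a test chosen after the values were seen. Per own base, ENST00000494150 in intron 2 had 0.189, 0.232 and 0.164 times the level of the coding exons in untreated libraries and 0.553, 1.11 and 0.839 times in DAC libraries. The ratio was 0.462, 0.539 and 0.495 in ATRA and 0.573, 0.670 and 0.609 in DAC+ATRA. Every treated library had a higher ratio than every untreated library. On the log2 scale the ratio differed from untreated by 1.88 in DAC (SE 0.28, limma adjusted p = 2.4e-05) and by 1.51 in DAC+ATRA (SE 0.28, limma adjusted p = 2.5e-04). Since ENST00000494150 passed the filter through treated groups only, and the pair was picked for its values, these differences are a description and their p-values support nothing further.

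The same ratio was fitted over the whole table, and its shares are given as background from which nothing is read about APOBEC3G. Of 2142 pairs of a retained-intron transcript with the leading coding transcript of its gene, 2.19% were called higher in DAC and 3.13% in DAC+ATRA, that is 47 and 67 pairs, while 179 and 190 were called lower. The median pair had −0.36 and −0.31. In ATRA the APOBEC3G ratio had 1.21 (SE 0.28, limma adjusted p = 0.048), which was not called. There 0% of the pairs were called higher, 48 pairs were higher at an unadjusted p under 0.05, and the median pair had −0.08. The 2 other intron transcripts of APOBEC3G had ratio changes in DAC of 1.81 (ENST00000463934, SE 0.53, limma adjusted p = 0.016) and 0.93 (ENST00000481958, SE 0.53, limma adjusted p = 0.22), neither called. In DAC+ATRA they had 1.33 (limma adjusted p = 0.073) and 0.49 (limma adjusted p = 0.55), also not called.

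**Figure D5:**
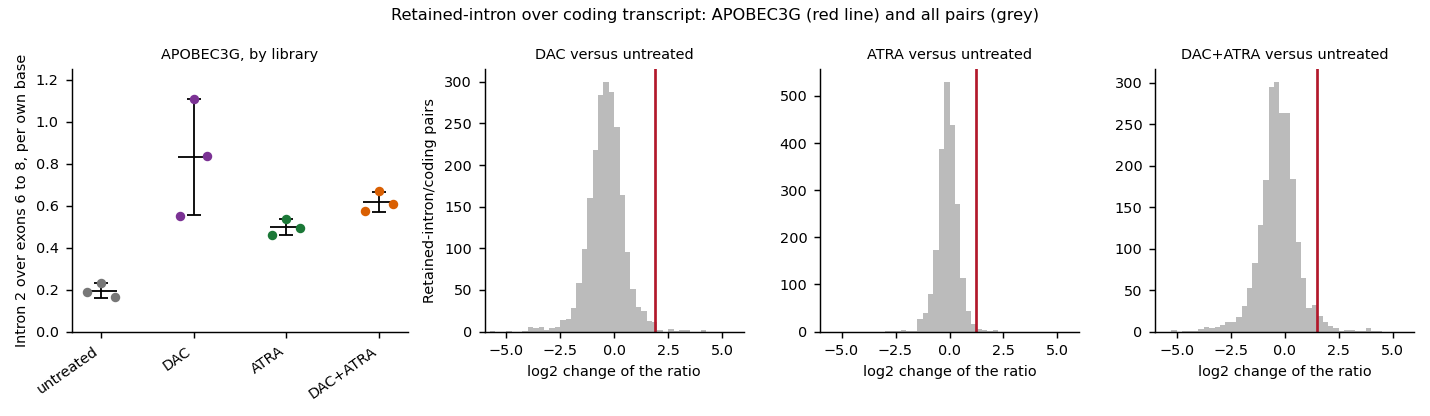
Left, the ratio of ENST00000494150 in intron 2 to the coding exons of APOBEC3G per own base, with points for libraries and lines and bars for the mean and SD of 3. Right, the log2 change of that ratio against untreated (red line: 1.88, 1.21 and 1.51) over a histogram of the same change in all 2142 pairs (grey). The red line lies right of the bulk of the pairs in each panel. This pair was picked for its values, so nothing is read from its place.

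The other genes of the wider family gave 1 tested symbol of 4. APOBEC2, a family member of muscle with no deaminase activity established, was at 0 in all untreated libraries. It had 199, 238 and 218 normalized reads in DAC, 0, 0 and 1.66 in ATRA, and 264, 319 and 303 in DAC+ATRA. Against 3 reads in a single untreated library, its mean was at least 78.8-fold higher in DAC and at least 107-fold higher in DAC+ATRA. Both differences were called (limma adjusted p = 6.1e-14 and 1.5e-14), where 39.3% and 46.8% of all coding transcripts were called. APOBEC2 passed the filter through the groups given DAC only, so these p-values support nothing further. APOBEC2 is not in the APOBEC3 cluster. APOBEC1 and APOBEC4 did not pass the filter.

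Restriction factors of other families, which act on the same retroviruses and retroelements, were read against the shares of all coding transcripts called, 39.3% in DAC, 9.14% in ATRA and 46.8% in DAC+ATRA, most of those calls being higher. Of 13 tested of 22 symbols, each taken by its coding transcript with the highest mean, 9 rose and 0 fell in DAC (median log2 fold change 0.64, against 0.24 over 7622 symbols), 2 rose and 1 fell in ATRA (0.036 against 0), and 8 rose and 1 fell in DAC+ATRA (0.75 against 0.22). With TMM the counts were 8 and 1, 2 and 1, and 8 and 1. SAMHD1, which empties the cell of the nucleotides that reverse transcription needs, went from 188 ± 22.1 (SD, n = 3) normalized reads in untreated to 418 in DAC, 438 in ATRA and 1313 in DAC+ATRA. On the log2 scale it rose by 1.15, 1.22 and 2.80 (limma adjusted p = 2.0e-08, 4.2e-08 and 1.1e-14). MX2, which blocks the nuclear entry of HIV, was the one that fell in DAC+ATRA (−0.43, SE 0.13, limma adjusted p = 0.0073).

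Genes of interferon reception and signalling, which lie upstream of APOBEC3G in interferon-treated cells, had 7 tested of 12. In DAC 3 rose, in ATRA 2 and in DAC+ATRA 6, and 0 fell in any of the 3 comparisons (5 rose in DAC+ATRA with TMM), beside 39.3%, 9.14% and 46.8% of all coding transcripts called. The median was 0.44 in DAC, 0.23 in ATRA and 0.92 in DAC+ATRA, against 0.24, 0 and 0.22 over all symbols. IRF1, a transcription factor of the interferon response, had 53.5 ± 0.203 (SD, n = 3) normalized reads in untreated, 125 in DAC, 338 in ATRA and 694 in DAC+ATRA. It rose by 1.21, 2.62 and 3.67 (limma adjusted p = 2.8e-07, 1.2e-11 and 5.8e-15). IFNGR2, a chain of the interferon gamma receptor, had 0.16 in DAC+ATRA (SE 0.35, limma adjusted p = 0.72).

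Genes that handle uracil after deamination, by base excision repair or by keeping dUTP low, had 6 tested of 10. In DAC 0 rose and 1 fell, in ATRA 0 were called, and in DAC+ATRA 1 rose and 3 fell, beside 39.3%, 9.14% and 46.8% called among all coding transcripts. The list median was −0.065, 0.035 and −0.36, against 0.24, 0 and 0.22 over all symbols. PARP1, which senses DNA breaks, fell by 0.52 in DAC+ATRA (SE 0.09, limma adjusted p = 8.5e-05). SMUG1, a uracil glycosylase, rose by 0.98 (SE 0.29, limma adjusted p = 0.0061), a call that TMM did not keep (0.76, adjusted p = 0.024). With TMM 2 fell in DAC, and 0 rose and 3 fell in DAC+ATRA.

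Regulators that others have tied to APOBEC3B, of the cell cycle and of NF-kappaB, had 5 tested of 16. In DAC 3 fell, in DAC+ATRA 3 fell (4 with TMM), and 0 rose in either, while 0 were called in ATRA, beside 39.3%, 46.8% and 9.14% called among all coding transcripts. RELA, an NF-kappaB subunit, was read through 1 transcript, ENST00000525693, with 48.6 ± 13.6 (SD, n = 3) normalized reads in untreated. That transcript fell by 1.15 in DAC (SE 0.29, limma adjusted p = 0.0026) and had −1.72 in DAC+ATRA (SE 0.29, limma adjusted p = 4.0e-05). LIN54, of the DREAM complex, had 0.0082 in DAC+ATRA (SE 0.19, limma adjusted p = 0.97).

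Genes beside the cluster on chromosome 22 had 11 tested of 12, with 2 higher and 1 lower in DAC, 0 higher and 1 lower in ATRA, and 2 higher and 4 lower in DAC+ATRA, beside 39.3%, 9.14% and 46.8% called among all coding transcripts. With TMM these were 1 and 3, 0 and 2, and 1 and 5. PDGFB, a growth factor gene, rose by 1.38 in DAC+ATRA (SE 0.26, limma adjusted p = 1.1e-04), and SYNGR1, a synaptic vesicle gene, fell by 1.61 (SE 0.15, limma adjusted p = 8.7e-09).

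The patterns most like those of the members were found by Pearson correlation over the 12 libraries among 4658 symbols with a mean of at least 50 normalized reads, as a description only, since the libraries share 4 groups. Nearest to APOBEC3C was NIPSNAP3A (r = 0.955), whose group means were 702 in untreated, 562 in DAC, 905 in ATRA and 680 in DAC+ATRA, followed by RHOU (r = 0.950) and C1orf106 (r = 0.936). Nearest to full-length APOBEC3F were H6PD, HNRNPLL and GM2A (r = 0.920, 0.920 and 0.919). Nearest to the APOBEC3G coding transcript was DCLRE1C (r = 0.937), followed by IRAK2 (r = 0.935) and PLPP3 (r = 0.934), the last with means of 48.0, 157, 412 and 987.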

How the data were processed

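The authors made strand-specific, rRNA-depleted libraries, used STAR on hg38, then HTSeq for counting and DESeq2 for scaling. Which annotation release and counting mode they used is not given in the sources used here, nor, for these transcript counts, how reads with several placements were handled. The deposited values are a normalized signal: counts per transcript divided by 1 size factor per library, from which 100% of values gave whole reads back (tolerance 0.01 reads). Columns name groups but carry no replicate numbers. The main test was limma 3.58.1 (trend and robust) on log2(value + 1), all 12 libraries in 1 fit, over coding transcripts with at least 10 in 3 libraries, with Benjamini-Hochberg adjustment and a threshold of 0.01. A second fit took all transcripts. A limma fit of log2 ratios, with the variance trend on the lower of both levels, gave the intron comparison. edgeR 4.0.16 and DESeq2 1.42.0 on recovered reads, other scalings, pseudocounts and filters, summed transcripts and leaving out each library were alternatives. Own bases and shared windows of 50 bases were computed from GENCODE 44 and hg38, while transcript versions in the table can differ from that release. Named genes were all 7 members, the 3 symbols most correlated with each member of mean 50 or more, and the highest and lowest member of each list in DAC+ATRA. The members and lists were chosen with earlier results of these data known.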

Additional observations from a re-analysis of the deposited data

How the results depend on the processing

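No paired analysis was possible because the table's columns carry no replicate numbers. The counts of called coding transcripts are between 0 and 3. In DAC versus untreated the count of 1 became 2 at a threshold of 0.05 (4631 of all 9016 called), 0 with no filter on low values (3955 of 25317), 2 with all transcripts summed by gene symbol (5493 of 13528) and 3 over all transcripts (6485 of 19373). In DAC+ATRA versus untreated 3 became 2 with edgeR under either scaling, DESeq2, library-total scaling, size factors from coding transcripts, no filter, at least 10 in every library, a pseudocount of 0.1 and both fits summed by gene symbol, 4 at a threshold of 0.05 or a pseudocount of 5, and 6 over all transcripts, and in DAC+ATRA versus DAC 1 became 2 over all transcripts. In DAC+ATRA versus ATRA 2 became 1 with edgeR and TMM, with scaling by library total, with a pseudocount of 0.1 and with size factors from coding transcripts, the last chosen after seeing the data. Leaving out 1 library gave 0 to 1 calls in DAC, 1 to 2 in ATRA, 1 to 3 in DAC+ATRA, 1 to 1 in DAC+ATRA versus DAC, 1 to 2 in DAC+ATRA versus ATRA and 0 to 0 for the interaction. The low values came without untreated libraries 1, 2 or 3 or DAC libraries 5 or 6 in DAC, without untreated libraries 1 or 2 or ATRA library 8 in ATRA, and without untreated library 1 in DAC+ATRA. The signs that changed were those of full-length APOBEC3F in DAC, −0.011 with edgeR and TMM, and of the APOBEC3G interaction, −0.41 with all transcripts summed, neither called. The cause of these shifts was not tested, apart from the added transcripts in the summed and all-transcript fits. Over single transcripts and the ratio, 573 of 612 values without 1 library and 576 of 625 under other settings kept direction and call, 30 and 22 lost the call, 9 and 25 gained it, and 0 and 2 changed sign. Depth limits APOBEC3B and the APOBEC3G intron rows, with 0 to 10 reads in each untreated library.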
